A study of Mus musculus with 18 samples.

Results

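Transcripts of sterol and fatty acid synthesis were followed in microglia, the resident macrophages of the brain, on expression arrays. The set held 34 genes: enzymes that build cholesterol from acetyl-CoA, enzymes that build, elongate and desaturate fatty acids, and the regulators that control both. They were chosen with earlier results of these data known. A member was represented by the brightest probe set annotated to its symbol alone, which gave 33 of the 34 members, among 22180 genes tested. Acat2, a thiolase that starts the mevalonate pathway, was not measured. Scap was the member with 2 such probe sets; its brighter one was used.

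Microglia were isolated from brains of SPF-housed, untreated and healthy C57Bl/6 mice, separately from cortex and from corpus callosum, a white matter tract whose axons are myelinated after birth. Each region was sampled on postnatal days 3 (P3) and 7 (P7) and in adult animals, whose age in days the labels do not give. Cells were enriched on a Percoll gradient and sorted as CD45 and CD11b positive and Gr1 negative; total RNA was amplified, biotin-labelled and hybridised to Affymetrix arrays. The 6 groups of region and age held 3 arrays each, 18 in all. The labels do not say whether an array holds 1 animal or a pool, so p-values measure only the spread between these samples. The sort gate does not separate microglia from macrophages of the brain borders, and marker values of both are given beside the comparisons of ages and regions.

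Cholesterol synthesis runs from acetyl-CoA through mevalonate and farnesyl diphosphate to squalene, which is oxidised and cyclised to lanosterol and then trimmed to cholesterol. SREBP-2, the product of Srebf2, drives the genes of this pathway, and SREBP-1, the product of Srebf1, drives fatty acid synthesis more strongly. SCAP carries both factors to the Golgi for activation when membrane sterol is low, and the INSIG proteins hold SCAP back when sterol is plentiful. The brain makes its own cholesterol, because lipoprotein cholesterol does not cross the blood-brain barrier, and most of it ends up in myelin.

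Levels are the deposited log2 values, so a difference of 1 is a doubling. The sign ± gives the standard deviation of 3 arrays beside a level and the standard error beside a difference. Adjusted p-values are from limma, with Benjamini-Hochberg adjustment over all 22180 genes; those under 0.05 count as called. Array medians lay between 5.58 and 5.74; 21 members lay above the median of every array, whereas Me1 and Scd1 lay below it on all 18. The P7 and adult arrays carry the same prefix in their labels and the P3 arrays another, so age cannot be told apart from array set where P3 is compared with P7. All 10 measured microglia markers lay above the median on every array, and P2ry12 had group means of 11.60 to 12.21. Oligodendrocyte markers averaged 5.35 to 5.50 in the groups and astrocyte markers 5.38 to 5.69. Both adult replicate 1 arrays had the lowest mean correlation with the other arrays, 0.956 (cortex) and 0.953 (corpus callosum), while all the rest reached at least 0.961.

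Between P7 and adulthood, transcripts of sterol synthesis fell in microglia of both regions. In cortex 15 of 33 members fell and 0 rose, where 6.15% of all genes were called lower and 10.2% were called in either direction. In corpus callosum 17 of 33 fell and 0 rose, with 10.7% of all genes called lower and 17.2% called in either direction. Squalene epoxidase (Sqle) had the largest fall in each region, 3.88-fold in cortex and 2.58-fold in corpus callosum. The median difference over members was -0.38 in cortex and -0.42 in corpus callosum, against 0.03 and 0.05 over all genes. In bulk RNA, fewer cells of a type and less RNA per cell cannot be told apart.

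The 2 lists shared 14 members, which is 93.3% of the cortex list and 82.4% of the corpus callosum list. These were Hmgcs1, Fdps, Fdft1, Sqle, Cyp51, Msmo1, Hsd17b7, Sc5d, Insig1, Srebf2, Stard4, Fasn, Fads1 and Fads2. Dhcr7 was called in cortex only by this threshold, and Srebf1, Elovl1 and Elovl5 in corpus callosum, but the test of the difference between regions called none of them. Of the 16 sterol enzymes 9 fell in cortex and 8 in corpus callosum, with medians of -0.65 and -0.48. Among the 11 fatty acid genes 3 fell in cortex and 5 in corpus callosum, with medians of -0.35 and -0.26. Arrays of the adult lay below all P7 arrays of the same region for 22 members in cortex and 21 in corpus callosum, against 13.7% and 17.0% of all genes.

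**Figure D1:**
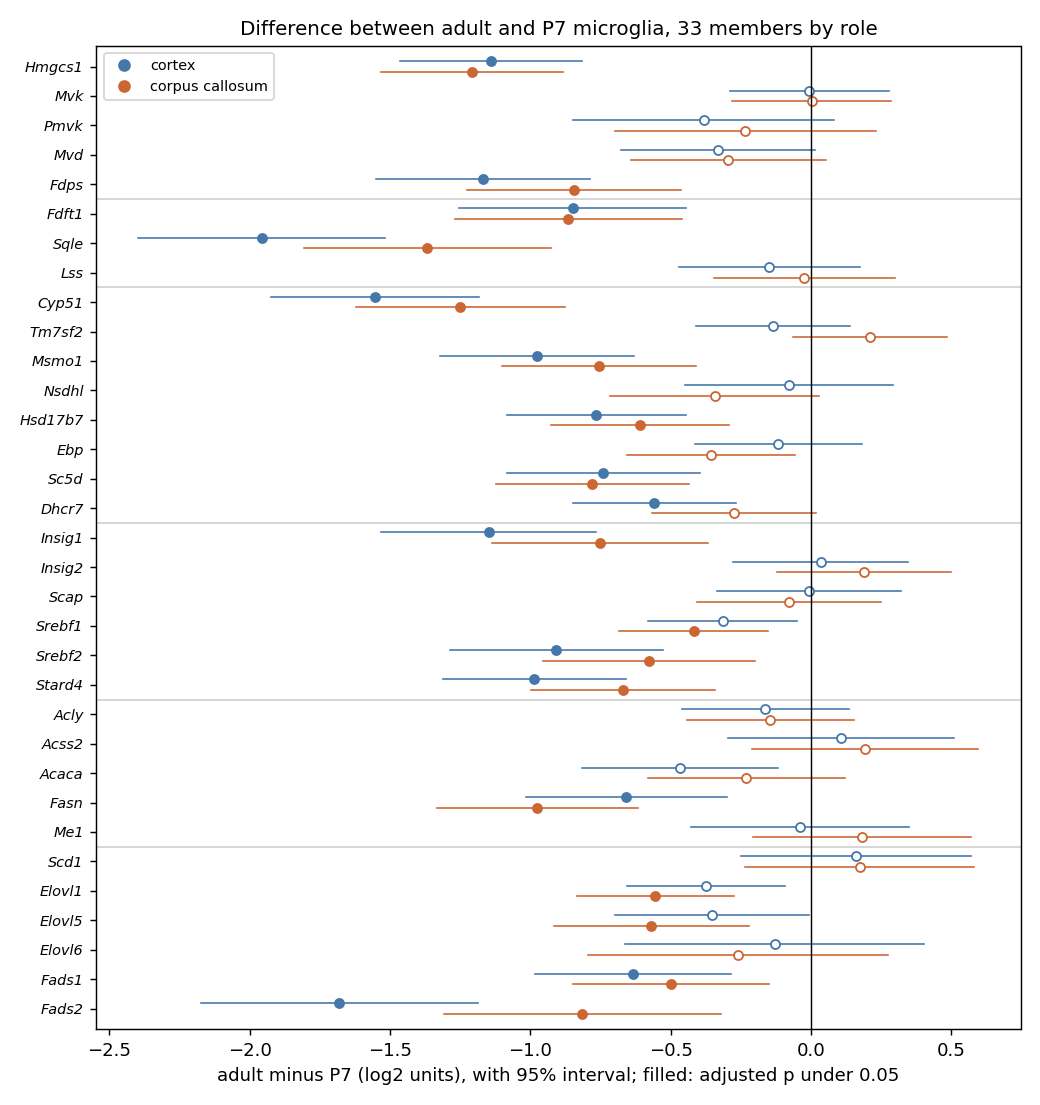
Adult minus P7 difference of each of the 33 measured members, in log2 units on the horizontal axis, in cortex (blue) and corpus callosum (orange); lines are 95% intervals, filled points had an adjusted p under 0.05 and grey lines part the roles. Filled points lie left of 0 in both regions, with Sqle farthest left at -1.96 in cortex, whereas Mvk, Scap, Insig2 and Scd1 lie near 0.

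Among the 5 measured enzymes from acetyl-CoA to farnesyl diphosphate, 2 fell in each region. Hmgcs1, the synthase that makes HMG-CoA, read 7.48, 8.04 and 7.90 on the P7 cortex arrays and 6.46, 6.79 and 6.73 on the adult ones. In corpus callosum it read 7.85, 7.81 and 7.77 at P7 and 6.40, 6.59 and 6.82 in the adult. At P3 its levels were 7.29, 7.39 and 7.44 in cortex and 7.75, 7.76 and 7.37 in corpus callosum. All 6 adult arrays lay below all 12 younger ones. Hmgcs1 fell by 1.14 ± 0.15 in cortex (adjusted p = 4.71e-05, limma) and by 1.21 ± 0.15 in corpus callosum (adjusted p = 1.73e-05), 2.2-fold and 2.31-fold. Its group means ran from 6.60 in adult corpus callosum to 7.81 in P7 corpus callosum.

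Fdps makes farnesyl diphosphate, the last intermediate that sterols share with other isoprenoids. It read 6.98, 7.19 and 7.24 in P7 cortex and 5.73, 5.95 and 6.22 in adult cortex. The levels in corpus callosum were 6.68, 6.84 and 6.84 at P7 and 5.97, 6.18 and 5.68 in the adult. On the P3 arrays it stood at 6.59, 6.04 and 6.04 in cortex and 6.24, 6.50 and 5.92 in corpus callosum. P7 arrays were high and did not overlap with either other age in the same region, whereas P3 and adult arrays overlapped. The fall to adulthood was 2.25-fold in cortex (-1.17 ± 0.18, adjusted p = 0.000206) and 1.79-fold in corpus callosum (-0.84 ± 0.18, adjusted p = 0.00265), with group means from 5.95 in adult corpus callosum to 7.14 in P7 cortex.

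The kinases and the decarboxylase between these steps were not called. For mevalonate kinase (Mvk) the difference was -0.01 in cortex (95% interval -0.29 to 0.28) and 0.00 in corpus callosum (95% interval -0.28 to 0.29), intervals that do not reach the fall of Hmgcs1. Mvk group means ran from 5.75 in P7 corpus callosum to 6.00 in P3 cortex. These levels were close to the array medians, where a difference may be understated. Phosphomevalonate kinase (Pmvk) differed by -0.38 ± 0.22 and -0.23 ± 0.22, with means from 6.54 in adult cortex to 7.07 in P3 corpus callosum. Its highest mean rested on a single array, corpus callosum P3 replicate 3, at 7.84 against 6.82 and 6.56 on the other two. Mevalonate diphosphate decarboxylase (Mvd) differed by -0.33 ± 0.17 and -0.29 ± 0.17, with means from 5.94 in adult corpus callosum to 6.72 in P3 corpus callosum; the same P3 array was its highest, at 7.16.

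Squalene synthesis and epoxidation fell in both regions. Fdft1, squalene synthase, read 7.26, 7.79 and 7.66 in P7 cortex, 6.55, 6.86 and 6.75 in adult cortex, 7.22, 7.43 and 7.02 in P7 corpus callosum and 6.75, 6.02 and 6.31 in adult corpus callosum. P3 levels were 7.16, 7.26 and 7.13 in cortex and 6.42, 6.95 and 6.34 in corpus callosum. P7 and adult arrays did not overlap in either region; in corpus callosum P3 arrays overlapped with the adult ones. Fdft1 fell by 0.85 ± 0.19 in cortex and 0.86 ± 0.19 in corpus callosum (adjusted p = 0.00616 and 0.00356), and its means ran from 6.36 in adult corpus callosum to 7.57 in P7 cortex.

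Sqle adds the oxygen that allows squalene to be cyclised and is a control point of the pathway. Its levels were 7.07, 7.51 and 7.42 in P7 cortex and 4.99, 5.58 and 5.55 in adult cortex. In corpus callosum they were 6.48, 6.70 and 7.16 at P7 and 5.06, 5.43 and 5.75 in the adult. P3 arrays read 6.91, 6.92 and 6.56 in cortex and 6.45, 6.50 and 6.17 in corpus callosum. Every adult array lay below every younger one, and replicate 1 was the lowest adult array in each region. Sqle lay above the array median on 13 of 18 arrays, and most adult levels were below it, so the fall may be understated. Sqle fell by 1.96 ± 0.21 in cortex (adjusted p = 2.75e-06) and by 1.37 ± 0.21 in corpus callosum (adjusted p = 0.000115), with means from 5.38 in adult cortex to 7.33 in P7 cortex. Lanosterol synthase (Lss), which closes the rings, was not called: it differed by -0.15 ± 0.15 in cortex and -0.02 ± 0.15 in corpus callosum. Its means ran from 5.27 in P3 cortex to 5.69 in P7 cortex. Lss lay above the array median on only 4 of 18 arrays, so a difference may be understated.

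**Figure D2:**
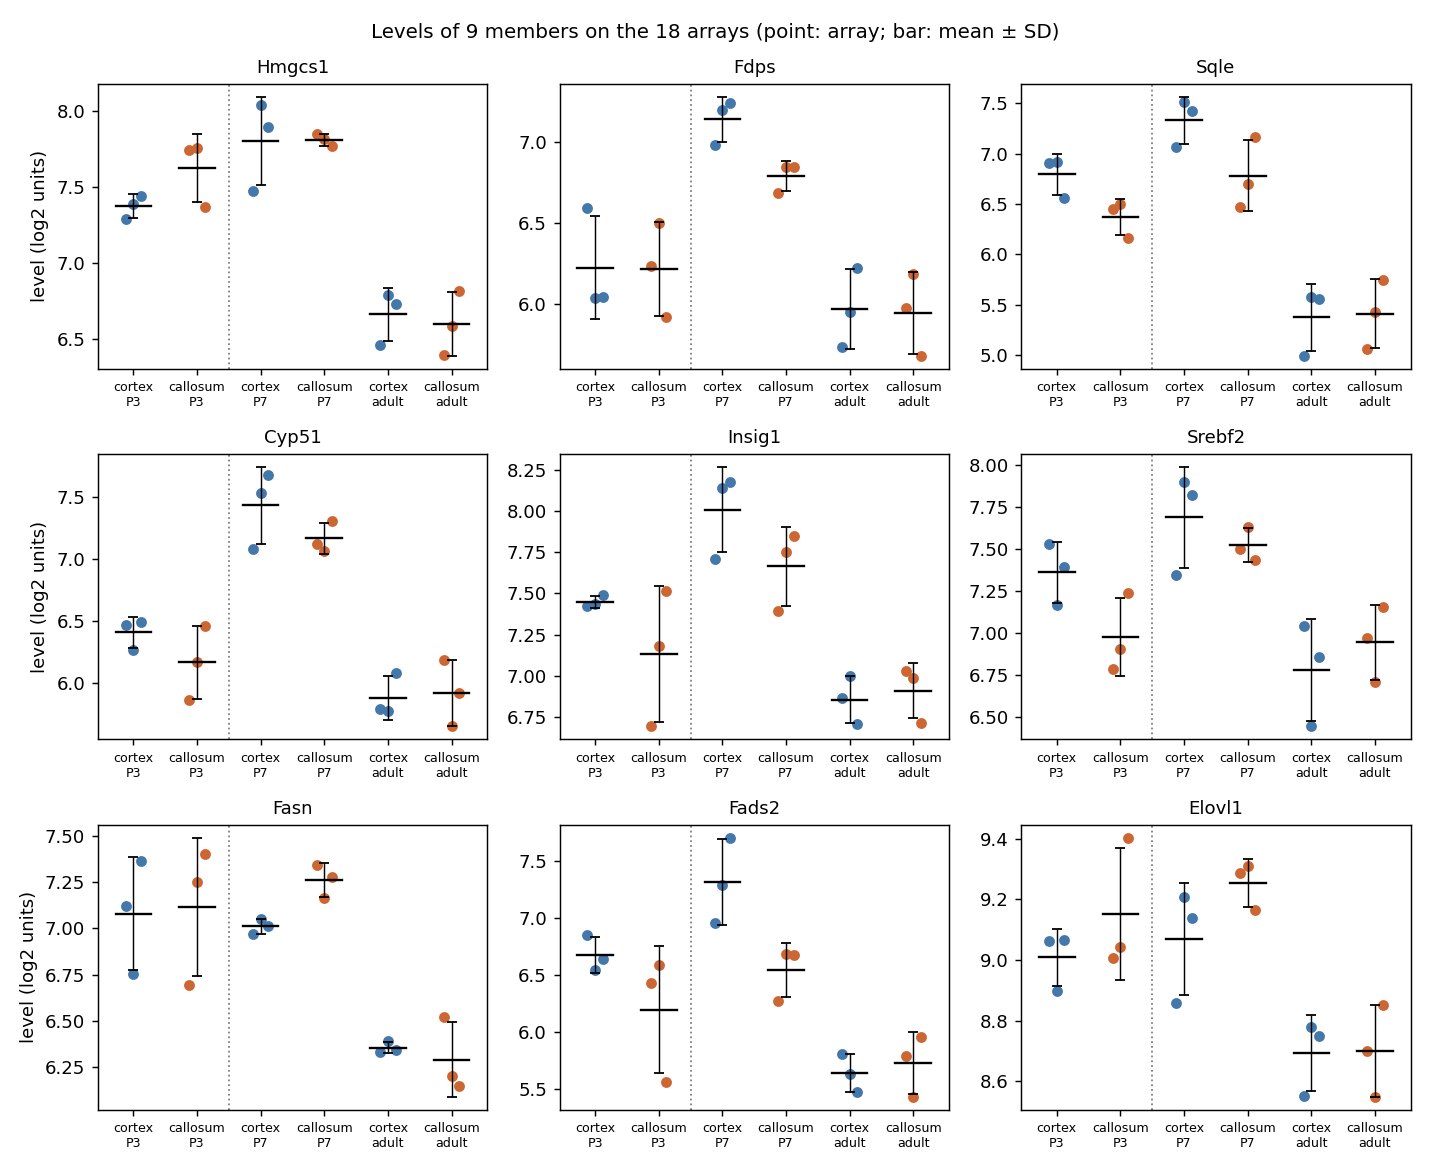
Levels in log2 units of 9 members on each of the 18 arrays, with the vertical scale set per gene; points are arrays, bars the mean ± SD of 3 arrays, blue cortex and orange corpus callosum, and the dotted line parts the P3 arrays, which carry another label prefix. Adult arrays of Hmgcs1, Sqle, Fasn and Elovl1 lie below all younger arrays, and Fads2 and Sqle have their highest means in P7 cortex.

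Of the 8 enzymes that turn lanosterol into cholesterol, 5 fell in cortex and 4 in corpus callosum. Cyp51, the demethylase that takes lanosterol as substrate, read 7.09, 7.54 and 7.68 in P7 cortex and 5.79, 5.77 and 6.08 in adult cortex. In corpus callosum it read 7.12, 7.07 and 7.31 at P7 and 6.18, 5.65 and 5.92 in the adult. At P3 it read 6.47, 6.27 and 6.49 in cortex and 5.87, 6.17 and 6.46 in corpus callosum. All 6 P7 arrays were higher than all 12 others. The fall from P7 to adult was 2.94-fold in cortex (-1.55 ± 0.18, adjusted p = 6.16e-06) and 2.38-fold in corpus callosum (-1.25 ± 0.18, adjusted p = 5.2e-05). Cyp51 means ran from 5.88 in adult cortex to 7.43 in P7 cortex.

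Msmo1 is the methylsterol oxidase that follows. It stood at 7.17, 7.63 and 7.42 in P7 cortex against 6.19, 6.42 and 6.67 in the adult, and at 6.89, 6.98 and 7.35 against 6.29, 6.31 and 6.36 in corpus callosum. P3 arrays gave 6.89, 6.56 and 6.60 in cortex and 6.53, 6.75 and 6.27 in corpus callosum. Adult and P3 arrays overlapped, and P7 arrays lay above both within each region. Msmo1 fell by 0.98 ± 0.16 in cortex and 0.76 ± 0.16 in corpus callosum (adjusted p = 0.00046 and 0.00295), with means from 6.32 in adult corpus callosum to 7.40 in P7 cortex.

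Hsd17b7, a reductase acting at the same stage, had levels of 6.15, 6.20 and 6.18 in P7 cortex and 5.29, 5.40 and 5.54 in adult cortex. Those of corpus callosum were 5.86, 5.77 and 5.79 at P7 and 5.19, 5.39 and 5.01 in the adult. P3 arrays read 5.73, 5.08 and 5.75 in cortex, where replicate 2 was low, and 5.70, 5.77 and 5.80 in corpus callosum. P7 and adult did not overlap in either region. It fell by 0.77 ± 0.15 and 0.61 ± 0.15 (adjusted p = 0.00203 and 0.00801), and its means ran from 5.20 in adult corpus callosum to 6.17 in P7 cortex.

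Sc5d, a desaturase of the sterol ring, read 7.33, 7.90 and 7.94 in P7 cortex and 7.10, 7.03 and 6.83 in adult cortex. The corpus callosum arrays read 7.62, 7.47 and 7.57 at P7 and 6.66, 6.77 and 6.89 in the adult. P3 levels were 7.45, 7.05 and 7.23 in cortex and 7.67, 7.45 and 7.19 in corpus callosum. P7 arrays lay above adult arrays in both regions, and within P7 cortex replicate 1 was well below the other two. Sc5d fell by 0.74 ± 0.16 in cortex and 0.78 ± 0.16 in corpus callosum (adjusted p = 0.00496 and 0.00215), and its means ran from 6.78 in adult corpus callosum to 7.72 in P7 cortex.

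Dhcr7 catalyses the final reduction to cholesterol. Its levels were 6.55, 6.77 and 7.06 in P7 cortex and 6.27, 6.22 and 6.22 in adult cortex. The levels in corpus callosum were 6.67, 6.70 and 6.93 at P7 and 6.38, 6.45 and 6.65 in the adult. At P3 they were 6.66, 6.57 and 6.65 in cortex and 6.39, 6.79 and 6.69 in corpus callosum. The adult cortex arrays were close together and below all others, whereas in corpus callosum the highest adult array almost reached the lowest P7 one. Dhcr7 fell by 0.56 ± 0.14 in cortex (adjusted p = 0.012); without P7 cortex replicate 3 this call was lost (adjusted p = 0.0951). The difference in corpus callosum was -0.27 ± 0.14 (adjusted p = 0.205), and means ran from 6.24 in adult cortex to 6.79 in P7 cortex.

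The other sterol enzymes were not called in either region. Tm7sf2, a sterol reductase, differed by -0.13 ± 0.13 in cortex and 0.21 ± 0.13 in corpus callosum, with means from 6.63 in adult cortex to 6.84 in adult corpus callosum. Nsdhl, a sterol dehydrogenase, differed by -0.08 ± 0.18 and -0.34 ± 0.18, with means from 6.70 in adult corpus callosum to 7.04 in P7 corpus callosum. Ebp, a sterol isomerase, differed by -0.12 ± 0.14 and -0.36 ± 0.14 (adjusted p = 0.0974 in corpus callosum), with means from 6.95 in P3 cortex to 7.44 in P7 cortex. These enzymes act between steps whose transcripts fell.

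Among the 6 regulators, 3 fell in cortex and 4 in corpus callosum. Insig1, which retains SCAP and is itself a target of SREBP, read 7.71, 8.14 and 8.17 in P7 cortex and 6.86, 7.00 and 6.71 in adult cortex. In corpus callosum it read 7.39, 7.75 and 7.85 at P7 and 7.03, 6.99 and 6.72 in the adult. P3 arrays gave 7.43, 7.43 and 7.49 in cortex and 6.70, 7.18 and 7.52 in corpus callosum. P7 and adult arrays did not overlap, and the P3 corpus callosum arrays were the most spread. Insig1 fell by 1.15 ± 0.18 in cortex and 0.75 ± 0.18 in corpus callosum (adjusted p = 0.000267 and 0.0069), 2.22-fold and 1.68-fold, with means from 6.86 in adult cortex to 8.01 in P7 cortex. Its relative Insig2, which is not driven by SREBP in the same way, differed by 0.03 in cortex (95% interval -0.28 to 0.35) and 0.19 in corpus callosum (95% interval -0.12 to 0.50). Insig2 means ran from 6.68 in P3 corpus callosum to 6.98 in adult cortex.

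Srebf2 read 7.34, 7.90 and 7.82 in P7 cortex and 7.04, 6.44 and 6.85 in adult cortex. Corpus callosum gave 7.50, 7.63 and 7.43 at P7 and 6.97, 6.71 and 7.15 in the adult. P3 levels were 7.53, 7.17 and 7.39 in cortex and 6.79, 6.91 and 7.24 in corpus callosum. P7 arrays lay above adult arrays in both regions, and P7 cortex replicate 1 was below the other two. Srebf2 fell by 0.91 ± 0.18 in cortex (adjusted p = 0.00207) and by 0.58 ± 0.18 in corpus callosum (adjusted p = 0.0322). The call in corpus callosum was lost under 7 of 27 alternatives, among them leaving out any P7 array of that region (adjusted p = 0.0554 to 0.11), adult replicate 1 (0.0677) or adult replicate 2 (0.143). Srebf2 means ran from 6.78 in adult cortex to 7.69 in P7 cortex.

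Srebf1 had group means from 6.21 in adult corpus callosum to 6.63 in P7 corpus callosum. It fell by 0.42 ± 0.13 in corpus callosum (adjusted p = 0.0273), and differed by -0.31 ± 0.13 in cortex (adjusted p = 0.148). The call was lost under 6 of 27 alternatives, among them leaving out P7 replicate 1 (adjusted p = 0.0677) or 3 (0.101) or adult replicate 1 (0.0668) or 2 (0.121) of corpus callosum. Scap differed by -0.01 in cortex (95% interval -0.34 to 0.32) and -0.08 in corpus callosum (95% interval -0.41 to 0.25), with means from 7.46 in adult corpus callosum to 7.76 in P3 corpus callosum. The escort transcript thus stayed uncalled beside the falling Srebf2 and Insig1.

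Stard4 carries cholesterol between membranes inside the cell. It read 5.97, 6.14 and 6.25 in P7 cortex and 5.43, 5.03 and 4.94 in adult cortex. The levels in corpus callosum were 5.55, 5.78 and 5.81 at P7 and 5.27, 4.90 and 4.95 in the adult. P3 arrays read 5.56, 5.26 and 5.39 in cortex and 5.18, 5.62 and 5.50 in corpus callosum. P7 cortex stood above every other array, and the adult levels lay near or below the array medians. Stard4 fell by 0.99 ± 0.16 in cortex and 0.67 ± 0.16 in corpus callosum (adjusted p = 0.000247 and 0.00494), with means from 5.04 in adult corpus callosum to 6.12 in P7 cortex.

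**Figure D3:**
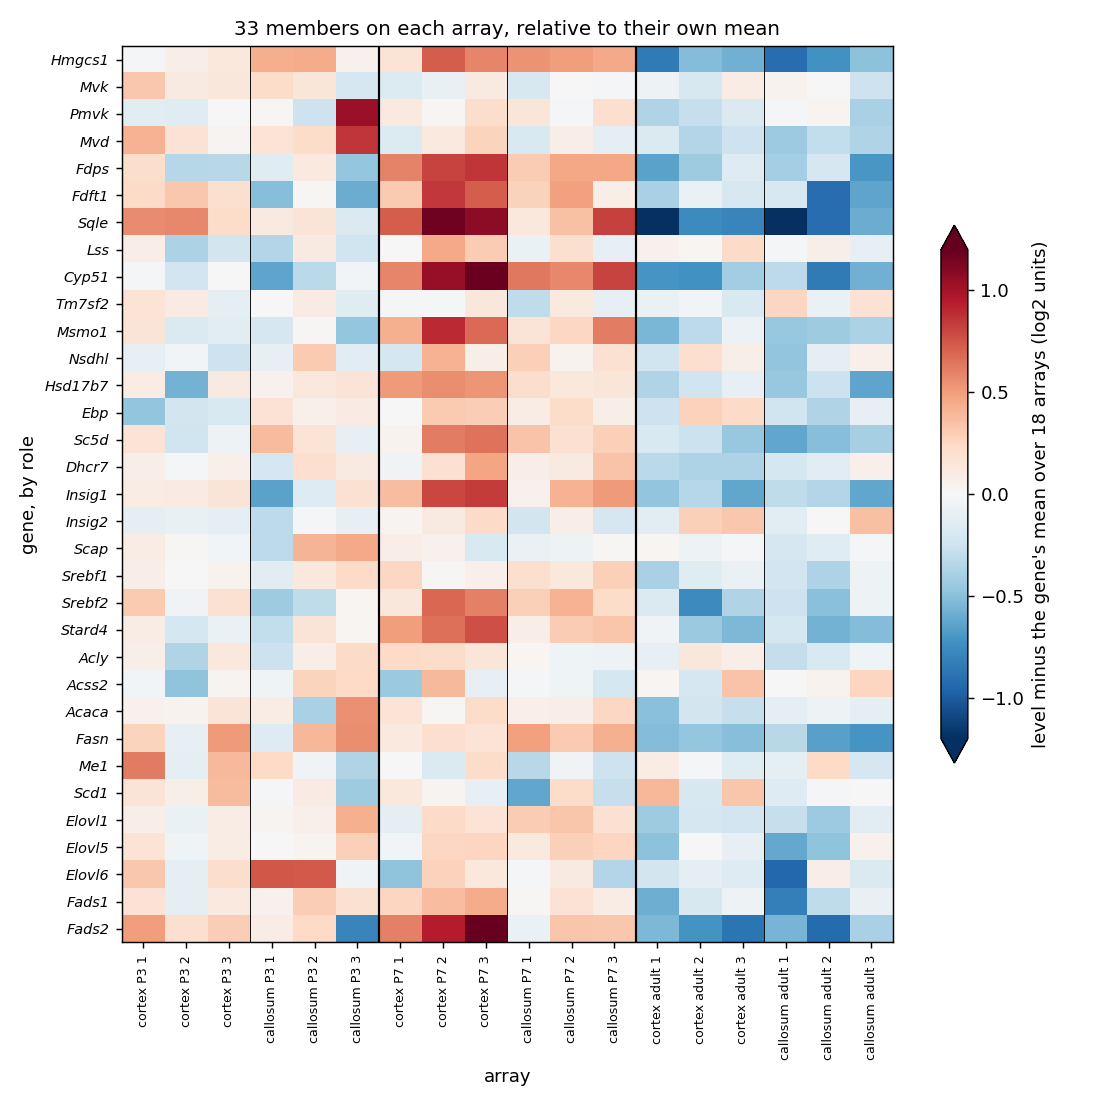
Level of each of the 33 measured members on each of the 18 arrays minus the gene's own mean over all arrays, in log2 units (red higher, blue lower; values past 1.2 take the end colours), with genes by role and arrays by group. Red gathers in the P7 columns and blue in the adult columns for most sterol enzymes, whereas Mvk, Tm7sf2, Insig2, Acss2 and Scd1 keep pale or mixed colours.

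Of the 5 fatty acid genes that supply acetyl-CoA and reducing power or build the chain, only Fasn was called, in both regions. Fasn, the synthase that assembles palmitate, read 6.97, 7.05 and 7.01 in P7 cortex and 6.33, 6.39 and 6.34 in adult cortex. In corpus callosum it read 7.34, 7.17 and 7.28 at P7 and 6.52, 6.20 and 6.15 in the adult. P3 arrays were spread more widely, at 7.12, 6.76 and 7.36 in cortex and 6.69, 7.25 and 7.41 in corpus callosum. All 6 adult arrays lay below all 12 younger ones. Fasn fell by 0.66 ± 0.17 in cortex (adjusted p = 0.0159) and by 0.98 ± 0.17 in corpus callosum (adjusted p = 0.000424), with means from 6.29 in adult corpus callosum to 7.26 in P7 corpus callosum. The cortex call was lost without P7 cortex replicate 2 (adjusted p = 0.0599), P7 cortex replicate 3 (0.0543) or adult cortex replicate 3 (0.0515).

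Acaca, the carboxylase that makes malonyl-CoA for Fasn, was not called: it differed by -0.47 ± 0.17 in cortex (adjusted p = 0.0936) and -0.23 ± 0.17 in corpus callosum (adjusted p = 0.397), with means from 5.87 in adult cortex to 6.33 in P7 cortex. Acly and Acss2 make cytosolic acetyl-CoA, from citrate and from acetate. Acly differed by -0.16 ± 0.14 and -0.15 ± 0.14, with means from 7.42 in adult corpus callosum to 7.79 in P7 cortex. Acss2 differed by 0.11 ± 0.19 and 0.19 ± 0.19, with means from 5.27 in P3 cortex to 5.58 in P3 corpus callosum. It lay above the array median on only 4 of 18 arrays. Malic enzyme (Me1), a source of NADPH, differed by -0.04 ± 0.19 and 0.18 ± 0.19 at levels below the array medians, where a difference may be understated, with means from 3.95 in P7 corpus callosum to 4.46 in P3 cortex.

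Among the 6 desaturases and elongases, 2 fell in cortex and 4 in corpus callosum. Fads2, which takes the first desaturation step of polyunsaturated fatty acids, read 6.95, 7.29 and 7.71 in P7 cortex and 5.81, 5.63 and 5.47 in adult cortex. Its corpus callosum levels were 6.27, 6.68 and 6.67 at P7 and 5.79, 5.43 and 5.96 in the adult. P3 levels were 6.85, 6.54 and 6.64 in cortex and 6.43, 6.59 and 5.56 in corpus callosum, where replicate 3 was low. P7 cortex stood above every other array, and adult arrays lay below the P7 arrays of their region. Fads2 fell by 1.68 ± 0.23 in cortex (adjusted p = 6.59e-05), 3.21-fold, and by 0.81 ± 0.23 in corpus callosum (adjusted p = 0.0211), 1.76-fold, with means from 5.64 in adult cortex to 7.32 in P7 cortex. The corpus callosum call was lost without P7 replicate 2 (adjusted p = 0.0794), P7 replicate 3 (0.0777) or adult replicate 2 (0.103) of that region.

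Fads1, the desaturase that acts later on the same fatty acids and whose gene lies near Fads2 on chromosome 19, read 9.10, 9.21 and 9.28 in P7 cortex and 8.25, 8.64 and 8.78 in adult cortex. Corpus callosum gave 8.86, 9.01 and 8.92 at P7 and 8.01, 8.53 and 8.75 in the adult. P3 arrays gave 9.01, 8.73 and 8.95 in cortex and 8.89, 9.13 and 9.02 in corpus callosum. Replicate 1 was the lowest adult array in both regions. Fads1 fell by 0.63 ± 0.17 in cortex and 0.50 ± 0.17 in corpus callosum (adjusted p = 0.0173 and 0.0461), with means from 8.43 in adult corpus callosum to 9.19 in P7 cortex. The corpus callosum call was lost under 16 of 27 alternatives, with an adjusted p of 0.248 and a difference of -0.29 without adult corpus callosum replicate 1. The cortex call was lost without P7 cortex replicate 2 (adjusted p = 0.0574), P7 cortex replicate 3 (0.0776) or adult cortex replicate 1 (0.0981).

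Elovl1, an elongase of saturated very long chains, read 8.86, 9.21 and 9.14 in P7 cortex and 8.55, 8.78 and 8.75 in adult cortex. Corpus callosum gave 9.29, 9.31 and 9.16 at P7 and, in the adult, 8.70, 8.55 and 8.85. P3 levels were 9.06, 8.90 and 9.07 in cortex and 9.01, 9.04 and 9.40 in corpus callosum. All adult arrays lay below all younger ones. Elovl1 fell by 0.55 ± 0.13 in corpus callosum (adjusted p = 0.00647), and the difference in cortex was -0.37 ± 0.13 (adjusted p = 0.0931), with means from 8.69 in adult cortex to 9.25 in P7 corpus callosum.

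Elovl5, an elongase of polyunsaturated chains, fell by 0.57 ± 0.17 in corpus callosum (adjusted p = 0.0219) and differed by -0.35 ± 0.17 in cortex (adjusted p = 0.236), with means from 8.31 in adult corpus callosum to 8.88 in P7 corpus callosum. Its corpus callosum call was lost under 7 of 27 alternatives, among them leaving out P7 replicate 2 (adjusted p = 0.0752) or 3 (0.0672) or adult replicate 1 (0.114) or 2 (0.0877) of that region. Elovl6, which extends palmitate, differed by -0.13 ± 0.25 and -0.26 ± 0.25, with means from 4.92 in adult corpus callosum to 5.75 in P3 corpus callosum. Elovl6 lay above the array median on only 2 of 18 arrays. Scd1, which makes monounsaturated fatty acids, differed by 0.16 ± 0.19 and 0.17 ± 0.19 at levels below the array medians, with means from 3.71 in P7 corpus callosum to 4.14 in P3 cortex.

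Other transcripts moved with age on the same arrays, where 10.2% of all genes were called in cortex and 17.2% in corpus callosum. All 11 measured cell cycle genes fell in both regions, and their mean level went from 8.82 ± 0.14 to 5.15 ± 0.13 in cortex and from 8.38 ± 0.39 to 5.15 ± 0.05 in corpus callosum. Of 7 markers of border macrophages 4 fell in cortex and 5 in corpus callosum. Their mean went from 6.85 ± 0.21 to 5.44 ± 0.04 in cortex and from 7.06 ± 0.06 to 5.55 ± 0.03 in corpus callosum. Mrc1 fell most of these, by 4.23 ± 0.27 in cortex and 4.44 ± 0.27 in corpus callosum. Cd163 and Lyve1 were called in neither region. Of 10 microglia markers 5 rose in cortex and 7 in corpus callosum. Of 7 neuron markers 3 fell in cortex and 0 in corpus callosum. Of 8 astrocyte markers 2 rose in cortex, Slc1a3 (1.79 ± 0.22) and Aqp4 (0.73 ± 0.21), and 1 in corpus callosum, Slc1a3 (0.96 ± 0.22). Of 8 endothelial or mural markers Pecam1 rose in cortex (1.06 ± 0.16). Of 6 monocyte markers Ccr2 rose in cortex (0.77 ± 0.15) and corpus callosum (0.45 ± 0.15), Lyz2 fell in both (-0.82 ± 0.19 and -1.22 ± 0.19), and Plac8 fell in cortex (-0.60 ± 0.18). Of 7 oligodendrocyte markers Mbp fell in corpus callosum (-0.33 ± 0.11). The part of these markers in the fall of the sterol genes was not tested.

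**Figure D4:**
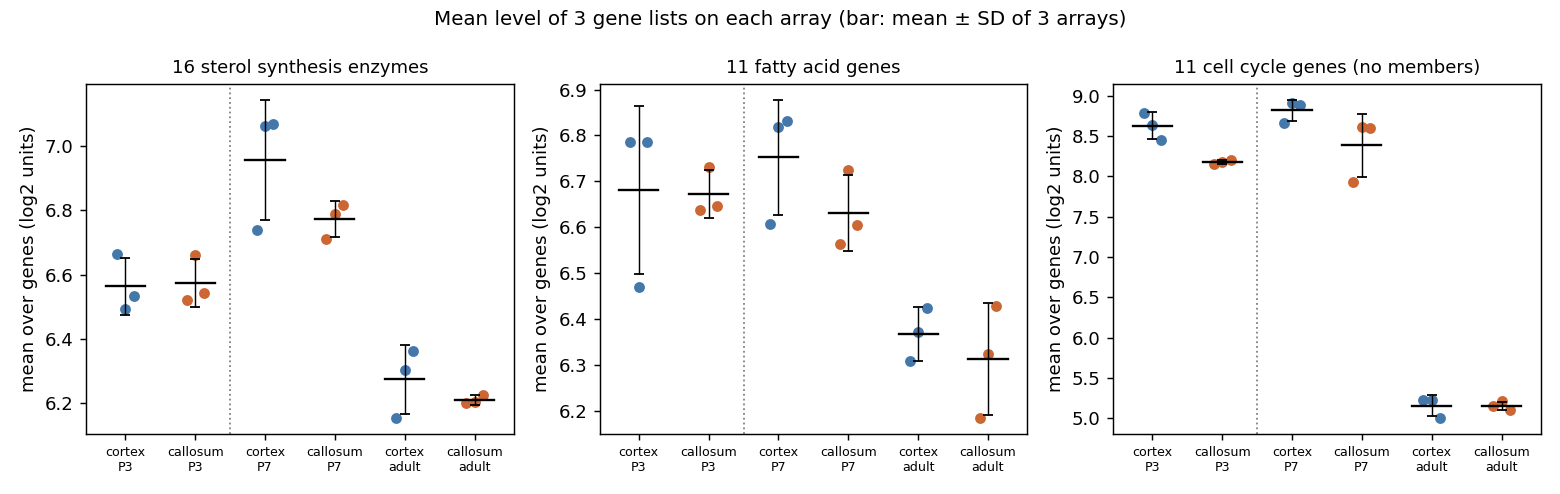
Mean level in log2 units of the 16 sterol synthesis enzymes, the 11 fatty acid genes and 11 cell cycle genes on each of the 18 arrays; points are arrays, bars the mean ± SD of 3 arrays, and the vertical scales differ. The sterol enzymes averaged 6.96 ± 0.19 in P7 cortex and 6.28 ± 0.11 in adult cortex, the fatty acid genes 6.75 ± 0.13 and 6.37 ± 0.06.

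Promoter sequence was set beside these results, because many members moved together and SREBP, NF-Y and Sp1 are known to act jointly at sterol gene promoters. RefSeq windows of 250 bases before the start site (GRCm38.p6) were matched for 27 of the 33 measured members, and Fdps, Fdft1, Sqle, Stard4, Scd1 and Fads1 had none. Below are the 5 members with a window that fell most in cortex, among those with a single window, and Mvk, whose difference was nearest 0. Sequences are 5′ to 3′ on the gene's strand; capitals mark TCACNCCAC (a loose sterol regulatory element), CACGTG (the E-box), CCAAT (bound by NF-Y) and GGGCGG (bound by Sp1), or their reverse complements.
Cyp51 (chr5:4104698-4104947, minus strand): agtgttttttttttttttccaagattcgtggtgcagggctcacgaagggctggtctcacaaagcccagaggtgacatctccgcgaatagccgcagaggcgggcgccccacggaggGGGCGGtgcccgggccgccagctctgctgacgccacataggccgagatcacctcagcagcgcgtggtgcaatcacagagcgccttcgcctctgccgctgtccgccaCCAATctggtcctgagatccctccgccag
Fads2 (chr19:10101504-10101753, minus strand): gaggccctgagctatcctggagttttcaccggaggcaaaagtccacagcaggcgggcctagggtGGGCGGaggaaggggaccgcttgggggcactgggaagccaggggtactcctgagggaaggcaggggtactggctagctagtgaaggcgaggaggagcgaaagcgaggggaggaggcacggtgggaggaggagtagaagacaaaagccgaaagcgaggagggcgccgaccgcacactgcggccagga
Insig1 (chr5:28071162-28071411, plus strand): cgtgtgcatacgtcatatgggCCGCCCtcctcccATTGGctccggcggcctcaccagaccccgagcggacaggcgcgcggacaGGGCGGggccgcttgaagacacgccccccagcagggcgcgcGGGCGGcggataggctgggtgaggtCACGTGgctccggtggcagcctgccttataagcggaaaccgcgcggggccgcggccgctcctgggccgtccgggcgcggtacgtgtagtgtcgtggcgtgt
Hmgcs1 (chr13:119690101-119690350, plus strand): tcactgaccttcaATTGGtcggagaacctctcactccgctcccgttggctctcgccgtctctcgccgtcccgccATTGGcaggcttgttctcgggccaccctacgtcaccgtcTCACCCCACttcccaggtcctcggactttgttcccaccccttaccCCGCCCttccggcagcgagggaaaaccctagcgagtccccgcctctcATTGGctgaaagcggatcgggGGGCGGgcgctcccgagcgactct
Msmo1 (chr8:64733579-64733828, minus strand): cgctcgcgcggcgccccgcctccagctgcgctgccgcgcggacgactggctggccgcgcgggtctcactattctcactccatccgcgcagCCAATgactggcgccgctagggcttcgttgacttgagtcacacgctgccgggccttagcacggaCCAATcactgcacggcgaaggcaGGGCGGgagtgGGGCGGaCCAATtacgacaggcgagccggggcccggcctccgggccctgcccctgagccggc
Mvk (chr5:114444019-114444268, plus strand): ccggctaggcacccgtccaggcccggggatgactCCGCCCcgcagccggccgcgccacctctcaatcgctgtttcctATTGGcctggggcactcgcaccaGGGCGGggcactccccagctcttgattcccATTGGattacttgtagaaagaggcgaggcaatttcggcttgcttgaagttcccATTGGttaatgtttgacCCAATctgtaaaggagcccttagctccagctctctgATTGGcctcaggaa

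The sterol regulatory element in the exact letters of the LDL receptor gene was found in 0 of 27 windows, against 0.08% of the 27025 genes of the table. TCACNCCAC was found in 1 window, that of Hmgcs1, at -137 to -129 from the start site, against 1.22% of genes. CACGTG was found in 6 of 27 windows (22.2%), against 6.86% of genes: Hsd17b7, Sc5d, Dhcr7, Insig1, Scap and Elovl5. CCAAT was found in 22 windows (81.5%), against 37.49% of all genes and 39.48% of protein-coding ones. GGGCGG was found in 22 windows as well, against 35.36% and 45.79%. All searches covered both strands, and the windows were not matched for base composition. Among the 13 members with a window that fell in either region, 12 held CCAAT, 11 GGGCGG and 5 CACGTG; among the 14 not called these were 10, 11 and 1. These counts were not tested. Mvk, which was not called, held 5 CCAAT matches and 2 GGGCGG matches, and Fads2 held 1 GGGCGG match and no CCAAT. A match here is a description of the letters in the window, not a bound site.

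Microglia of the corpus callosum and the cortex were compared at each age. No member was called at P3, at P7 or in the adult, where 0.505%, 0.451% and 0.00451% of all genes were called by limma. At an unadjusted p under 0.05 there were 3, 4 and 1 members of 33, where 12.8%, 6.88% and 8.51% of all genes were. The median difference, corpus callosum minus cortex, was 0.03 at P3, -0.17 at P7 and -0.07 in the adult, against 0.01, 0.00 and 0.01 over all genes. These medians moved when single arrays were left out. At P3 the median ran from -0.04 without cortex replicate 2 to 0.11 without corpus callosum replicate 1, and it was also below 0 without corpus callosum replicate 2 or 3 (both -0.03). At P7 it ran from -0.24 without cortex replicate 1 to -0.09 without corpus callosum replicate 1 (-0.10 without cortex replicate 3), and in the adult from -0.11 without cortex replicate 1 to -0.02 without cortex replicate 3 or corpus callosum replicate 1.

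At P7, 27 of 33 members had a lower mean in corpus callosum. The arrays of 6 members lay wholly below those of cortex and those of 1 wholly above, where 7.76% and 8.97% of all genes did so. Fads2 had the largest difference, -0.78 ± 0.23 (95% interval -1.27 to -0.28, adjusted p = 0.275); with array weights in the fit it was called (adjusted p = 0.0288). Sqle differed by -0.55 ± 0.21 (95% interval -0.99 to -0.11, adjusted p = 0.5) and Stard4 by -0.41 ± 0.16 (95% interval -0.73 to -0.08, adjusted p = 0.518). At the other end were Fasn at 0.25 ± 0.17, Elovl1 at 0.19 ± 0.13 and Srebf1 at 0.09 ± 0.13. On the same arrays all 10 microglia markers had a lower mean in corpus callosum, 8 of them without overlap, with a median difference of -0.22; their mean level was 10.63 ± 0.16 against 10.89 ± 0.03 in cortex. All 11 cell cycle genes were lower as well, averaging 8.38 ± 0.39 against 8.82 ± 0.14. Border macrophage markers averaged 7.06 ± 0.06 against 6.85 ± 0.21, and Folr2 of that list was called higher (1.95 ± 0.22, adjusted p = 9.05e-05). Ms4a7 and Cd163 of the same list had higher means in corpus callosum and were not called. Mrc1 (10.57 against 11.05 in cortex), Pf4, Cbr2 and Lyve1 had lower means there and were not called either. Neutrophil markers averaged 5.79 on corpus callosum replicate 1, against 4.62 and 4.64 on the other P7 arrays of that region. The part of these lists in the sterol values was not tested.

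At P3 the lowest values were those of Fdft1, -0.62 ± 0.19 (95% interval -1.02 to -0.21, adjusted p = 0.164), Fads2, -0.49 ± 0.23, and Sqle, -0.42 ± 0.21. The highest were Ebp, 0.40 ± 0.14 (95% interval 0.10 to 0.70, adjusted p = 0.225), Pmvk, 0.36 ± 0.22, and Elovl6, 0.34 ± 0.25. Corpus callosum arrays lay wholly above cortex for 1 member and wholly below for 2, with 9.17% and 6.67% of all genes. Without corpus callosum P3 replicate 3 the Pmvk difference was -0.03 and that of Fads2 -0.17. That array also had the highest mean of neutrophil markers, 6.27 against 4.68 and 5.17 on the other corpus callosum P3 arrays. Cortex P3 arrays read 5.56, 5.15 and 4.26 for this list. Its mean of monocyte markers was the highest as well, 6.87 against 6.11 and 6.04. Border macrophage markers averaged 7.07 ± 0.27 in corpus callosum and 6.50 ± 0.35 in cortex at P3. Folr2 (1.63 ± 0.22) and Ms4a7 (1.53 ± 0.29) of that list were called higher, as was the monocyte marker Lyz2 (0.90 ± 0.19). Of the 7 border macrophage markers 6 had a higher mean in corpus callosum. The other, Mrc1, was lower there without overlap (9.64 against 10.36) and was not called. The neuron markers Meg3 (-1.32 ± 0.21) and Gap43 (-1.27 ± 0.18) were called lower. Microglia markers averaged 10.45 ± 0.10 and 10.63 ± 0.09, with 7 of 10 lower in corpus callosum. All 11 cell cycle genes had a lower mean in corpus callosum, 6 of them without overlap, and 0 were called. They averaged 8.18 ± 0.02 in corpus callosum and 8.63 ± 0.17 in cortex. The part of these markers and cell cycle genes in the values of the members was not tested.

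In the adult all 33 differences lay between -0.36 and 0.26. The lowest were Fdft1 at -0.36 ± 0.19 (95% interval -0.77 to 0.04), Ebp at -0.32 ± 0.14 (95% interval -0.62 to -0.02) and Scd1 at -0.23 ± 0.19. The Fdft1 difference was -0.19 without corpus callosum replicate 2 and -0.56 without corpus callosum replicate 1. The highest were Dhcr7 at 0.26 ± 0.14, Acaca at 0.23 ± 0.17 and Tm7sf2 at 0.22 ± 0.13. Groups did not overlap for 2 members, higher in corpus callosum, where 6.73% of all genes did so, and for 0 members lower, where 6.07% did. No marker of microglia or border macrophages was called between the adult regions. The interval for Hmgcs1, -0.39 to 0.26, excludes a regional difference as large as its fall with age. That for Sqle, -0.40 to 0.48, does not reach its fall either. Adult Sqle averaged 5.38 in cortex and 5.41 in corpus callosum, below the array medians, where a difference may be understated. Its interval therefore cannot exclude one.

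**Figure D5:**
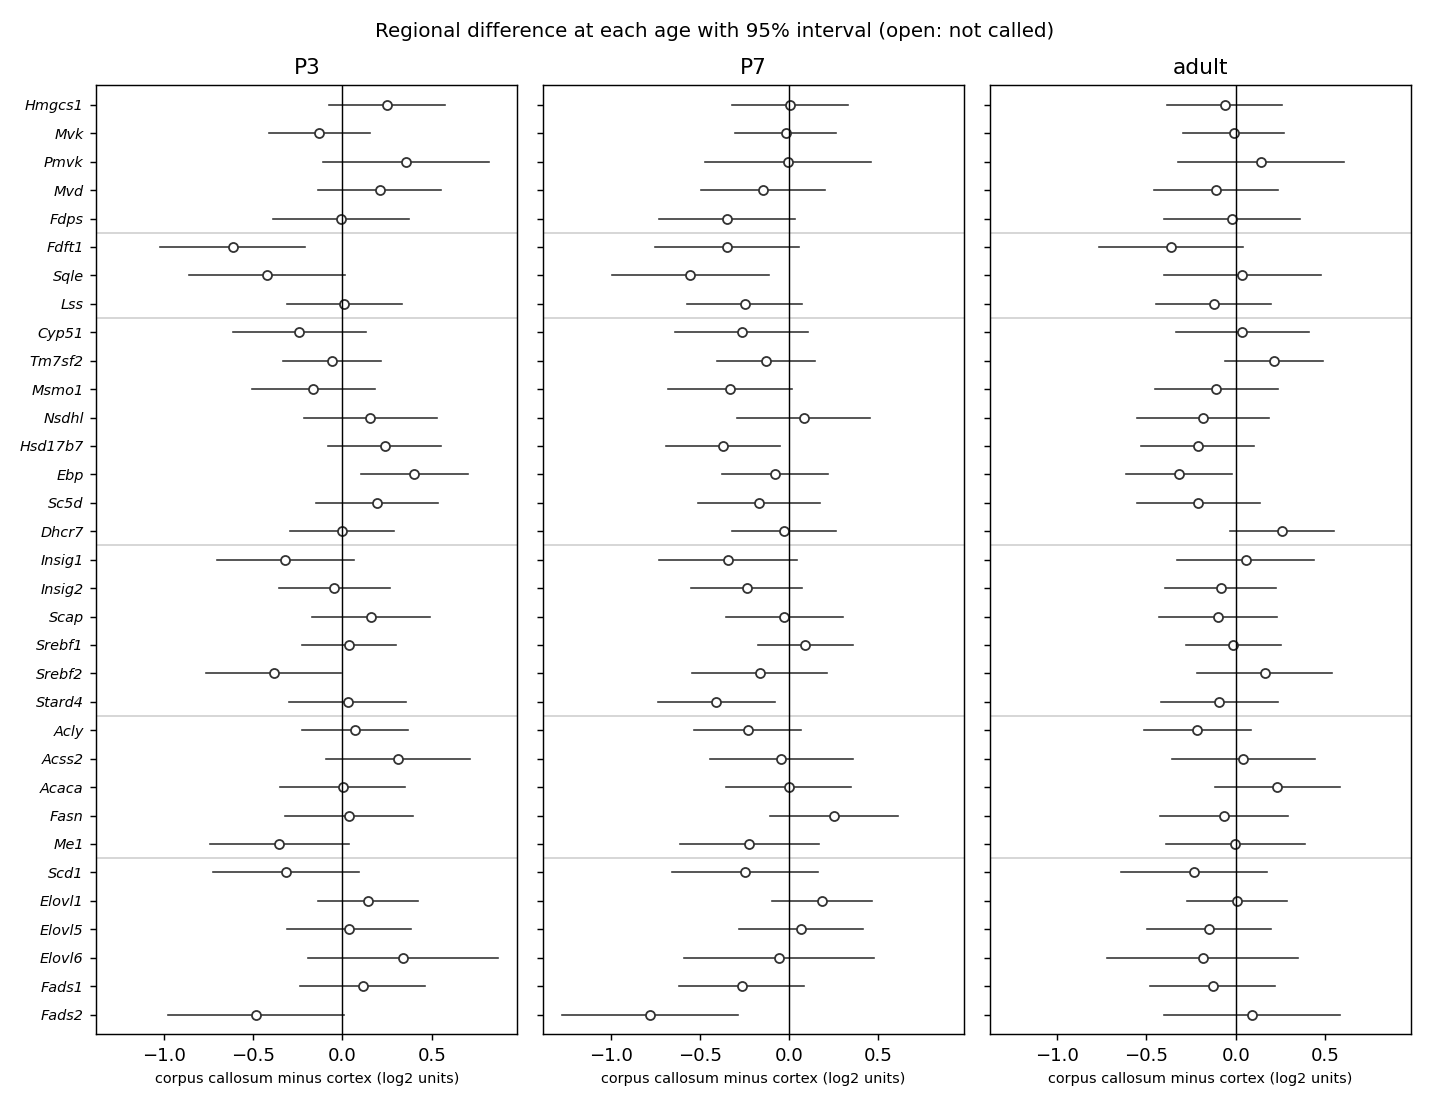
Corpus callosum minus cortex difference of each of the 33 measured members in log2 units, at P3, P7 and in the adult; lines are 95% intervals, all points are open because no member was called, and grey lines part the roles. Most P7 points lie left of 0, with Fads2 farthest at -0.78, and the adult points lie between -0.36 and 0.26.

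Whether the regional difference itself changed with age was tested as an interaction. For adult against P7, 0 members were called, with 0.203% of all genes called, and 1 member of 33 had an unadjusted p under 0.05, as did 7.34% of all genes. That member was Fads2, whose regional difference changed by 0.87 ± 0.33 (95% interval 0.17 to 1.56, adjusted p = 0.548). Sqle followed at 0.59 ± 0.30 and Insig1 at 0.40 ± 0.26, and the lowest were Fasn at -0.32 ± 0.24, Nsdhl at -0.26 ± 0.25 and Ebp at -0.24 ± 0.20. For P7 against P3, 0 members and 0% of genes were called, and 2 members had an unadjusted p under 0.05, as did 5.68% of all genes. Hsd17b7 (-0.60 ± 0.21), Ebp (-0.48 ± 0.20) and Stard4 (-0.44 ± 0.22) were lowest, each with an adjusted p of 0.868, and Fdft1 (0.27 ± 0.27), Srebf2 (0.22 ± 0.25) and Fasn (0.21 ± 0.24) were highest. For adult against P3, 0 members and 0.180% of genes were called, and 2 members had an unadjusted p under 0.05, as did 13.7% of all genes. Ebp was lowest at -0.72 ± 0.20 (adjusted p = 0.124), followed by Elovl6 at -0.52 ± 0.36 and Hsd17b7 at -0.45 ± 0.21; Fads2 at 0.57 ± 0.33, Srebf2 at 0.55 ± 0.25 and Sqle at 0.46 ± 0.30 were highest.

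Between P3 and P7 some of the same enzymes were higher at P7, but in this comparison age and array set cannot be told apart. In cortex 5 members were called higher and 0 lower, where 0.280% of all genes were called higher and 0.884% in either direction. Cyp51 rose by 1.02 ± 0.18 (adjusted p = 0.00723), Fdps by 0.91 ± 0.18 (0.0204), Msmo1 by 0.72 ± 0.16 (0.045), Stard4 by 0.71 ± 0.16 (0.0364) and Hsd17b7 by 0.66 ± 0.15 (0.048). None of these 5 calls was kept without P7 cortex replicate 3, where 0 members were called and the adjusted p of Cyp51 was 0.0599; other single arrays left out removed part of them. The lowest values were those of Me1, -0.28 ± 0.19, Mvk, -0.24 ± 0.14, and Scd1, -0.18 ± 0.19.

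In corpus callosum Cyp51 was the 1 member called, where 0.325% of genes were called higher and 0.739% in either direction. It rose by 1.001 ± 0.18 (adjusted p = 0.0172), and the call was lost without P3 replicate 1 (adjusted p = 0.0698), P7 replicate 2 (0.0581) or P7 replicate 3 (0.0827) of that region. Fdft1 (0.65 ± 0.19, adjusted p = 0.121) and Fdps (0.57 ± 0.18, adjusted p = 0.146) came next and were not called. Elovl6 at -0.57 ± 0.25, Mvd at -0.49 ± 0.17 and Acss2 at -0.25 ± 0.19 were lowest. From P3 to P7 all 10 microglia markers had a higher mean in cortex and 8 of 10 in corpus callosum, none of them called. Border macrophage markers went from 6.50 ± 0.35 to 6.85 ± 0.21 in cortex and from 7.07 ± 0.27 to 7.06 ± 0.06 in corpus callosum, and the neuron markers Meg3 and Gap43 and the monocyte marker Vcan were called lower at P7 in cortex. Their part in these values was not tested. Over the 3 ages, P7 had the highest mean for 23 of 33 members in cortex, against 26.1% of all genes, and for 21 of 33 in corpus callosum, against 25.1%. The adult had the lowest mean for 26 of 33 members in each region, against 32.4% and 32.8% of all genes.

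Genes next to these pathways were read from lists chosen for their function, with earlier results of these data known. From P7 to adult 899 of all 22180 genes were called higher and 1365 (6.15%) lower in cortex. In corpus callosum 1454 were called higher and 2368 (10.7%) lower. Of 16 other sterol genes 10 were measured, and in each region 3 fell from P7 to adult and 0 rose. They were Cyb5r3, a reductase that supplies electrons to sterol desaturation (-0.85 ± 0.13 in cortex and -0.98 ± 0.13 in corpus callosum), Erg28, a scaffold of sterol demethylation (-0.72 ± 0.13 and -1.13 ± 0.13), and Acat1, a mitochondrial thiolase (-0.54 ± 0.12 and -0.63 ± 0.12). Genes of that list without a matching probe set were not analysed here.

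Of 21 genes of sterol sensing and uptake 16 were measured: 2 rose in cortex, and in corpus callosum 1 rose and 3 fell. Of all genes 10.2% were called in either direction in cortex and 17.2% in corpus callosum. Mylip, a ligase that marks the LDL receptor for degradation, rose in both regions (0.97 ± 0.14 and 0.93 ± 0.14), and Rnf145, a sterol-responsive ligase, rose in cortex (0.48 ± 0.13). Lipa, the lysosomal acid lipase, fell in corpus callosum (-0.89 ± 0.15), as did the sterol transfer genes Npc2 (-0.62 ± 0.12) and Gramd1b (-0.93 ± 0.14). Counts this small, near those shares of all genes, show no direction for the list as a whole. These small counts were not tested.

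Of 8 genes of sterol export and ester turnover 7 were measured: 2 rose and 1 fell in cortex, and 1 rose and 4 fell in corpus callosum. The share of all genes called in either direction was 10.2% in cortex and 17.2% in corpus callosum. Apoe, the main lipid carrier of brain, fell in both (-1.14 ± 0.17 and -1.29 ± 0.17), and Cyp27a1, a sterol hydroxylase, rose in both (0.66 ± 0.14 and 0.74 ± 0.14). Abcg1, a sterol exporter, rose in cortex (0.55 ± 0.16). Nceh1, a cholesteryl ester hydrolase, fell in corpus callosum (-1.97 ± 0.19), along with Ch25h (-0.69 ± 0.17) and Abca1 (-0.59 ± 0.17). At P7 these lists held genes called higher in corpus callosum than in cortex, Nceh1 (1.86 ± 0.19), Gramd1b (0.94 ± 0.14), Lipa (0.84 ± 0.15), Apoe (0.84 ± 0.17) and Abcg1 (0.79 ± 0.16). In that comparison 0 synthesis members and 0.451% of all genes were called.

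Of 31 other fatty acid genes 27 were measured: 3 rose and 6 fell in cortex, and 4 rose and 8 fell in corpus callosum. Over all genes 10.2% were called in either direction in cortex and 17.2% in corpus callosum. Hacd1 and Hsd17b12, enzymes of the elongation cycle, fell in both regions. Hacd1 differed by -1.41 ± 0.20 in corpus callosum, with a 95% interval of -1.41 to -0.59 in cortex, and Hsd17b12 by -0.86 ± 0.17 in cortex and -1.30 ± 0.17 in corpus callosum. Idh1, a source of NADPH, fell in corpus callosum (-1.31 ± 0.15). Mlxipl, which encodes a glucose-responsive activator of lipogenic genes, rose in both (0.72 ± 0.15 and 1.14 ± 0.15), as did Thrsp (1.35 ± 0.23 and 0.75 ± 0.23).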

How the data were processed

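RNA of microglia sorted from cortex and corpus callosum at 3 ages was measured on 18 Affymetrix arrays, 6 groups of 3. The deposited log2 values, 1 per probe set and array, had been made by the authors with RMA, per the submitters' processing notes. The RMA version, settings and array annotation were not given in the sources used here. No log base is stated either; with values from 0.87 to 13.8 it was taken as 2. RMA makes array distributions alike and compresses large differences, so a change in total RNA per cell cannot be seen.

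Of 41345 probe sets, 23521 had 1 symbol in GEO's platform annotation, 1814 several and 16010 none. The brightest probe set of each gene over all arrays was used; 1082 genes had more than 1. Limma 3.58.1 (R 4.3.3) was fitted with a mean per group over 22180 genes (lmFit, contrasts.fit, eBayes, 12 residual degrees of freedom), with two-sided tests of 10 contrasts, adjusted by Benjamini-Hochberg within each. An exact two-sided test of 3 arrays against 3 cannot go below 0.1, and none was used. The fit was checked on simulated data. Alternatives were quantile normalization, median centring, a filter on dim genes, the mean of probe sets, trend with robust eBayes, array weights, fits of the 2 groups alone, a replicate block, leaving out each array, and, chosen after seeing the data, leaving out both adult replicate 1 arrays. Members named in full were the called ones, up to 16 by adjusted p, and the 3 highest and lowest differences of each contrast; each member is given with its extreme group means. Genes outside the set were named from the pathway lists if called, up to 6 per list. The members, lists and rules were chosen with earlier results of these data known. Promoter windows came from RefSeq (GRCm38.p6).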

Additional observations from a re-analysis of the deposited data

How the results depend on the processing

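Each comparison was refitted under 27 alternatives (26 for Elovl6, Me1 and Scd1, which the filter on dim genes leaves out). Of 38 calls of members, 24 held under every one and 14 were lost in at least 1. Members called lower in the adult than at P7 numbered 12 to 16 (cortex) and 12 to 18 (corpus callosum) when single arrays were left out. The other alternatives gave 15 to 18 and 13 to 18. In corpus callosum, quantile normalization and fits of the 2 groups alone each gave 14. Leaving out both adult replicate 1 arrays gave 13 there. With array weights, 1 member (Fads2) was called between regions at P7 and 8 between P3 and P7 in cortex. Fits of the 2 groups alone gave 3 calls in cortex and 0 in corpus callosum for P7 against P3, and leaving out single arrays gave 0 to 5 and 0 to 2. Leaving out any cortex array of these ages, P7 corpus callosum replicate 2, adult cortex replicate 2 or adult corpus callosum replicate 3 left 0 to 3 of the 5 cortex calls. Signs turned for 3 uncalled values: with single arrays left out, Pmvk between regions at P3 ranged from -0.029 (without corpus callosum P3 replicate 3) to 0.612, Insig2 in cortex from P7 to adult from -0.049 to 0.180, and Acss2 likewise from -0.089 to 0.327. The causes of these changes were not tested. Counts over all genes moved by more than 1.5 times: between regions at P3 112 became 16 to 201, at P7 100 became 40 to 236, from P7 to adult in cortex 2264 became 1567 to 3861, from P3 to P7 196 became 72 to 644 (cortex) and 164 became 5 to 506 (corpus callosum), and between adult regions 1 became up to 3. For the change of the regional difference, 45 became 10 to 105 (adult against P7), 40 became 0 to 129 (adult against P3) and 0 became up to 1 (P7 against P3). The shares of genes called that stand beside the members' counts move with these.

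Replicate numbers are shared by the groups, and the correlation of deviations between same-numbered arrays of the 2 regions was 0.02 to 0.30, not over 0.1 for every pair, so the numbers were not taken to pair the arrays. The replicate block was replicate number within age for comparisons of regions. For comparisons of ages it was replicate number as a covariate shared by all ages and regions. With it, 15 members were called lower in the adult in cortex and 17 in corpus callosum. At P7 against P3, 4 were called higher in cortex and 1 in corpus callosum, and between regions 0 were called. Only 3 arrays per group and signal near background, as for Me1 and Scd1, limit what can be detected. Lss, Acss2 and Elovl6 also lay mostly below the array medians, as did Sqle in the adult.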
